A study of Mus musculus with 2 samples.

Results

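10 genes that respond to the tumour suppressor p53 or belong to the GADD45 family were followed on 2 arrays of mouse cells treated with gonadotropin-releasing hormone (GnRH) or vehicle. They are Cdkn1a, Mdm2, Gadd45a, Gadd45b, Gadd45g, Ccng1, Bbc3, Pmaip1, Sesn1 and Phlda3, chosen by gene name, and all 10 were on the array among 35017 gene names in all. Cdkn1a had 3 probes and the other 9 genes had 1 each, which made 12 of 55681 probes and 21 of 59305 non-control spots.

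The cells were labelled GT1-7, an immortalised line of mouse hypothalamic neurons. Cells of the GnRH group, on 1 array, were given 50 nM GnRH, and those of the vehicle group, on 1 array, were given DMSO, both for 30 min. The line is known to carry a viral large T antigen driven by the promoter of the Gnrh1 gene. Large T antigen binds p53 protein, which limits that line as a model of p53 signalling. Whether the cells on these arrays carry it was not tested. The free-text description of both samples names bradykinin and another cell line instead, while the other labels name GT1-7 and GnRH, and the groups follow those. Gnrh1, which should mark the labelled cells, was in neither group well above background, whereas 5 of 6 gonadotrope markers were measured on both, among them Cga at 69481 on the GnRH array and 80508 on the vehicle array. Pitx1 had 44001, Nr5a1 28614 and Gnrhr 13656 on the GnRH array, against 48204, 33412 and 14862 on the vehicle array. Lhb was dim, at 72.1 on the GnRH array and 71.5 on the vehicle array. The summed signal of the measured markers was 155824 on the GnRH array and 177057 on the vehicle array for gonadotropes, 42772 and 46312 for 5 of 7 GnRH neuron markers, of which Chga alone, a gene of many endocrine cells, gave 41179 and 44595, and 898 and 994 for 3 of 4 astrocyte markers. It was 6078 and 6593 for 3 of 4 microglia markers and 1467 and 1670.4 for 3 of 5 fibroblast and endothelial markers. These sums compare the arrays for 1 list and not the lists with each other; Gnrh1, Six6, Fshb, Cx3cr1, Cdh5 and Col1a1 were well above background on neither array. Fos, an immediate-early gene, was 63.3-fold higher on the GnRH array, at 6725 against 114 on the vehicle array.

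p53 is a transcription factor that accumulates after DNA damage and other stress, binds a pair of adjacent 10-base elements in its target genes, and slows the cell cycle or starts apoptosis. Cdkn1a encodes the cyclin-dependent kinase inhibitor p21. Mdm2 encodes the ubiquitin ligase that degrades p53, and Ccng1 encodes cyclin G1, which acts on Mdm2; both close a feedback loop. Bbc3 and Pmaip1 encode PUMA and NOXA, proteins that trigger apoptosis by binding BCL2 relatives. Sesn1 encodes a sestrin that restrains growth signalling, and Phlda3 encodes a repressor of the kinase AKT. The 3 GADD45 proteins bind the kinase MAP3K4, which activates p38 and JNK. Gadd45a is the classic p53 target among them, while Gadd45b and Gadd45g are known as early response genes induced by cytokines and, in neurons, by activity.

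Promoters of the GADD45 genes are shown because these genes differ in direction, those of Mdm2 and Ccng1 because these genes are set against each other, and that of Cdkn1a because it has 2 start sites. Each line holds the 250 bases before a RefSeq transcription start in build GRCm38.p6, 5′ to 3′ on the gene's strand. Capitals mark p53 elements, the EGR motif GCGNGGGCG, the TATA motif TATAAA and the E-box CACGTG, found on either strand; for a p53 element that lies beside a second 10-base run with at most 1 mismatch, that run is in capitals too.
Gadd45a: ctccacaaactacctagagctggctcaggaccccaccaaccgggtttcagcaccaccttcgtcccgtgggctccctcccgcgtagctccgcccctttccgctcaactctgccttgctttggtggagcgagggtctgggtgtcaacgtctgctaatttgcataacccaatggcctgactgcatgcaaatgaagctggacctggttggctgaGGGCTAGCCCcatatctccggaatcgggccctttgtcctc
Gadd45b: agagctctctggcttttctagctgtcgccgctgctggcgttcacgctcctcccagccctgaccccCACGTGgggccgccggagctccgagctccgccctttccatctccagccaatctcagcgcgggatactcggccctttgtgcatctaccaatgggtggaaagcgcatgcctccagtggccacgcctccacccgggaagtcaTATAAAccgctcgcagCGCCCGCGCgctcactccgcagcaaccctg
Gadd45g: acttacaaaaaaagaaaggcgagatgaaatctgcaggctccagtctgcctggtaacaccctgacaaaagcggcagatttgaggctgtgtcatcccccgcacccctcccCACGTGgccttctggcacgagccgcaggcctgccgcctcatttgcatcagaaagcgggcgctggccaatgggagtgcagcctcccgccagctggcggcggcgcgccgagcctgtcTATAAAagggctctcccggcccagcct
Cdkn1a upstream start: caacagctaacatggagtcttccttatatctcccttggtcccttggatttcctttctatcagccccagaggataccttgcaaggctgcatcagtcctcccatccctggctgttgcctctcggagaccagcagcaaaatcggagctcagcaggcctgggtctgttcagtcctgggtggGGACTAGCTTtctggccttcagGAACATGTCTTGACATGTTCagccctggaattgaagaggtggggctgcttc
Cdkn1a downstream start: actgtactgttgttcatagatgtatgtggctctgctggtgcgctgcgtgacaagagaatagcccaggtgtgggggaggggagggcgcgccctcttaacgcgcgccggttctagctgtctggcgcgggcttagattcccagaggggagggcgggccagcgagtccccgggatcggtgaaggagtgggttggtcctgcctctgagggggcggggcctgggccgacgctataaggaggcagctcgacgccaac
Mdm2: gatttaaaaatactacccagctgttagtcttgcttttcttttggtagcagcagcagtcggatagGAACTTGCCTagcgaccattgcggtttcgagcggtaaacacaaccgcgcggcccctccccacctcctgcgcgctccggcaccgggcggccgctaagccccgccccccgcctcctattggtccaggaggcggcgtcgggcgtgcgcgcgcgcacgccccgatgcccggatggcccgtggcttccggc
Ccng1: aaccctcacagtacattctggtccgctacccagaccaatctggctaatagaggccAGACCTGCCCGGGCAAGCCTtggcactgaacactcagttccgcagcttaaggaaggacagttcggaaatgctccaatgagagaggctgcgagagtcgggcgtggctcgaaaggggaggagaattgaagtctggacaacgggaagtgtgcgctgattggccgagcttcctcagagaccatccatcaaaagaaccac

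These windows lie at chr6:67037408-67037657 (minus strand) for Gadd45a, chr10:80929841-80930090 (plus) for Gadd45b and chr13:51846425-51846674 (plus) for Gadd45g. The Cdkn1a windows lie at chr17:29090729-29090978 and chr17:29093519-29093768 (both plus), that of Mdm2 at chr10:117710759-117711008 (minus), and that of Ccng1 at chr11:40755287-40755536 (minus). The windows of Gadd45b and Gadd45g each hold a TATAAA and a CACGTG, and that of Gadd45a holds neither. Over 32851 RefSeq windows of this length, 12.4% hold TATAAA and 6.02% hold CACGTG. The Gadd45b window also holds the EGR motif, which 4.70% of all windows hold, and the Gadd45a window holds 1 p53 element, which 7.13% of all windows hold. The window before the upstream start of Cdkn1a has p53 elements at bases -73 to -64 and -51 to -42, the second with tgacatgttc, 1 mismatch from the element, directly after it. Ccng1 has an element with such a neighbour at bases -185 to -176, and Mdm2 has a single element at bases -186 to -177. This arrangement is in 2 of 13 windows of the members and in 25 of all 32851 windows (0.0761%).

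9 of the 10 genes had a window in the table, 13 windows in all. The cyclic AMP element TGACGTCA, the AP-1 motif TGANTCA and the CArG box of serum response factor were in 0 of the 13, against 1.55%, 6.75% and 1.47% of all windows. The p53 element was in 5 windows, 1 each of Cdkn1a, Gadd45a, Mdm2, Ccng1 and Sesn1. The EGR motif was in 4 windows of 3 genes, Gadd45b, Bbc3 and Sesn1, TATAAA in 2 windows and CACGTG in 3. The shorter cyclic AMP motif TGACG, which is contained in TGACGTCA, was in 2 of the 13 windows against 17.8% of all windows, the NF-kB site in 1 against 3.90%, and GGGCGG, which can overlap the EGR motif, in 10 against 32.7%. The members' windows had a GC content of 54.0% to 81.6%, with a median of 52.4% over all windows. These are matches of letters only, and known p53 sites of Gadd45a and Mdm2 lie in introns outside these windows.

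**Figure D1:**
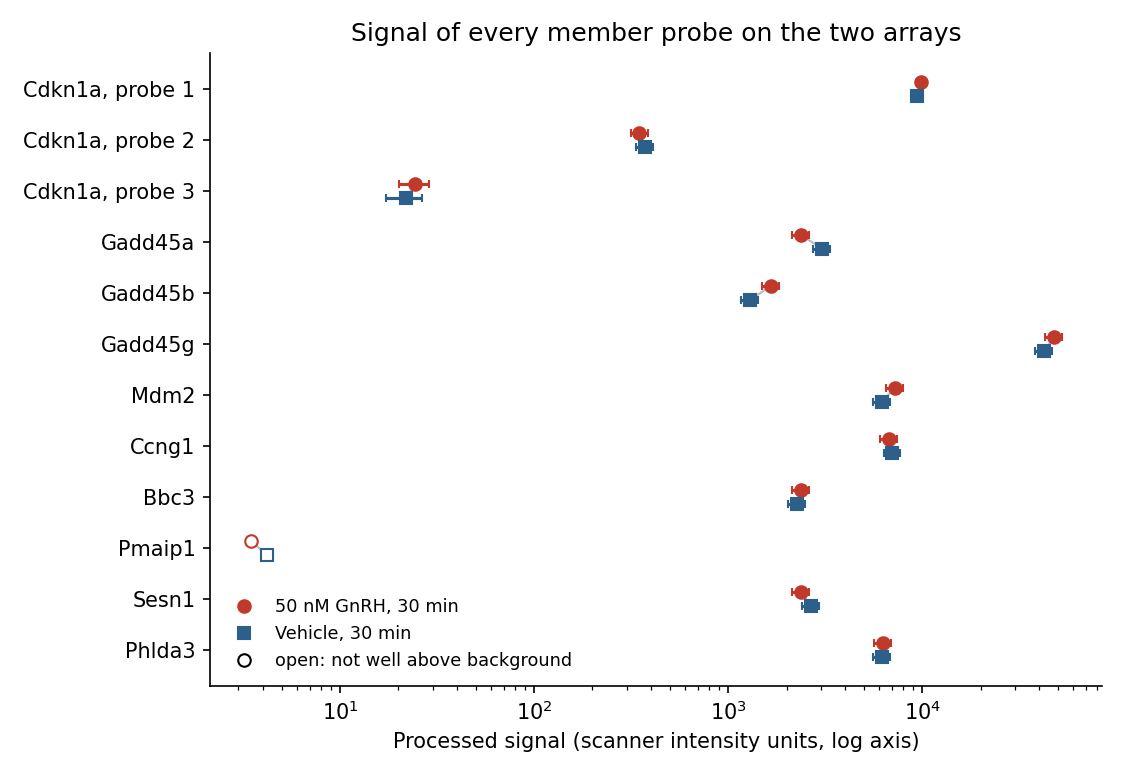
Processed signal of each member probe on the GnRH array (circles) and the vehicle array (squares), on a log axis in scanner intensity units, before scaling between arrays. Bars are the scanner error; those of Pmaip1, drawn open, are left out because neither of its spots was well above background, at 3.46 on the GnRH array and 4.21 on the vehicle array. Signals of different probes are not comparable as levels.

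Each group was a single array without replicates, so no test was made, the number of arrays limits the precision, and every value describes these 2 arrays. RNA of whole cultures was measured, so fewer cells of a type and less RNA per cell cannot be told apart. Signals are given as the scanner software processed them. Differences are on the log2 scale, GnRH minus vehicle, after each array was divided by the 75th percentile of its probes, 541 on the GnRH array and 578 on the vehicle array, which adds 0.09 to every difference. The scanner error of a single-spot difference was about 0.20 for bright probes, most of it a fixed setting of the software. Among 262 probes printed 10 times and well above background on all kept spots, single spots of the same probe varied by 0.05 (SD of the log2 difference) at signals of 1252 to 4209 and by 0.04 above that. These errors are technical and leave out variation between cultures.

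None of the 9 measured genes differed 2-fold, and Pmaip1 was not measured. Among the 9 that were measured in both groups, 0 reached 2-fold higher, where 0.311% of 21219 measured genes were, and 0 reached 2-fold lower, where 0.132% were. At 1.5-fold the counts were 0 higher, against 1.19% of all genes, and 0 lower, against 0.881%. The differences ran from -0.27 for Gadd45a to 0.44 for Gadd45b with a median of 0.17, and the median over all measured genes was -0.01. Of the 9, 7 lay above 0, as did 47.5% of all genes, and 4 were higher by more than their scanner error, as were 7.34% of all genes. The 4 were Cdkn1a, Mdm2, Gadd45b and Gadd45g. Cdkn1a, on 10 spots, had an error of 0.06. Bbc3, on 1 spot, had the same difference of 0.17 and was within its error of 0.20. Gadd45a alone was lower by more than its scanner error, as were 6.78% of all genes. 8 of the 9 fell within the central 95% of all genes' differences, which ran from -0.39 to 0.43, and Gadd45b lay just above it. This range and the shares of all genes include dim genes, while each measured member had a vehicle signal of at least 1301. Single spots of probes printed 10 times varied by 0.19 at signals of 25.4 to 281, against 0.05 at 1252 to 4209. The place of the members among genes of like signal was not counted. Scaled to the spike-in controls described below, 1 member, Gadd45b, was higher by more than its scanner error, as were 2.92% of all genes. On that scale Gadd45a and Sesn1 were lower by more than theirs, as were 27.1% of all genes.

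**Figure D2:**
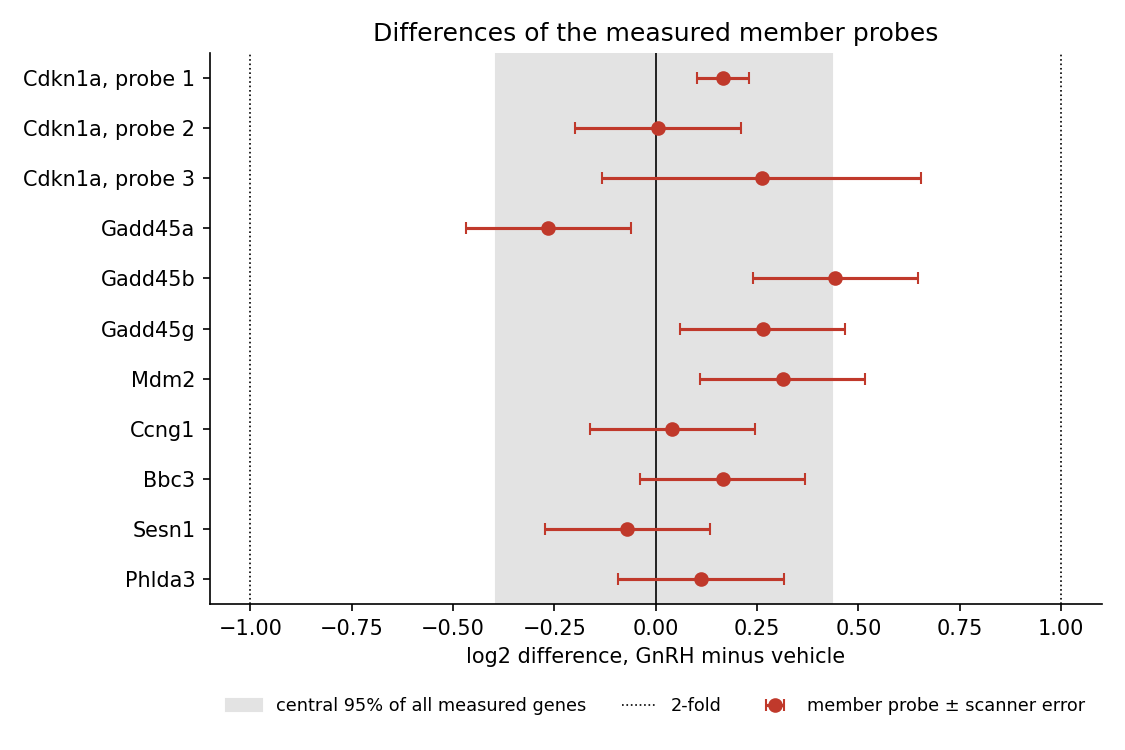
Log2 difference, GnRH minus vehicle, of each member probe well above background on both arrays, with the scanner error as bars. The grey band is the central 95% of all 21219 measured genes, dim ones included (-0.39 to 0.43), and dotted lines mark 2-fold. Gadd45b at 0.44 is the highest and Gadd45a at -0.27 the lowest.

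The GADD45 genes did not share a direction. Gadd45b had a signal of 1657 on the GnRH array, against 1301 on the vehicle array, a 1.36-fold higher value (log2 difference 0.44 ± 0.20, scanner error), and 2.36% of all measured genes had a larger difference. Gadd45g had 47699 on the GnRH array, against 42438 on the vehicle array, 1.20-fold higher (0.26 ± 0.20), and 0.12 when scaled to the spike-ins, within its error. Gadd45a had 2375 on the GnRH array, against 3048 on the vehicle array. Gadd45a was thus the member that stood lowest under GnRH, 1.20-fold lower (-0.27 ± 0.20), and 5.47% of all genes had a smaller difference.

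The contrast between family members does not depend on a scaling that shifts every difference by the same amount, because both values come from the same arrays. Other processing can change it. Without background correction Gadd45b was at 0.43, Gadd45g at 0.24 and Gadd45a at -0.23. As reported, the difference of Gadd45b exceeded that of Gadd45a by 0.71 ± 0.29, a 1.63-fold shift in the ratio of their signals. Gadd45g exceeded Gadd45a by 0.53 ± 0.29, and Gadd45b exceeded Gadd45g by 0.18 ± 0.29, less than the scanner error. The Gadd45b probe, for NM_008655, lies at chr10:80394367-80394426 (plus strand), the Gadd45g probe, for NM_011817, at chr13:51943733-51943792 (plus), and the Gadd45a probe, for NM_007836, at chr6:66985376-66985435 (minus), in build mm9 as the files give it. Each was 1 spot, and the spots around them had median differences of -0.11, -0.02 and -0.05 (Gadd45b, Gadd45g and Gadd45a). No gene annotation of mm9 was used here, and the exon or untranslated region of a probe is not given.

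Cdkn1a was measured with the least technical error, on 10 spots per array of the probe at chr17:29237377-29237436 (plus strand, mm9), which the files list for both NM_007669 and NM_001111099. The spots ran from 9547 through a median of 9887 to 10165.5 on the GnRH array, against 9139 through a median of 9368 to 9832.5 on the vehicle array. Each of the 10 positions read higher on the GnRH array, and 8 of the 10 GnRH spots exceeded the highest vehicle spot. After scaling to the 75th percentile, the spots did not overlap, at 4.14 to 4.23 on the GnRH array and 3.98 to 4.09 on the vehicle array (log2). That separation depends on the scaling. Scaled to the spike-in controls, the mean difference was 0.024, less than the range of the spots within either array, so the spots overlap. How many of the 262 probes printed 10 times also did not overlap was not counted. With the 75th percentile scaling, the gene was 1.12-fold higher. Its mean log2 difference was 0.17 with an SD of 0.02 over the 10 spots (0.06 as scanner error). Spots of 1 array share their RNA, so this spread is that of the printing and scanning and not of cultures. A difference of at least this size in either direction was seen in 23 of the 262 probes printed 10 times (8.78%). Those 262 include dim probes, down to a signal of 25.4. Among the 66 brightest, from 4349 up, where Cdkn1a lies, the mean differences had a median size of 0.03 and an SD of 0.06. The share at least as large as that of Cdkn1a was not counted for them.

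The other 2 Cdkn1a probes, of 1 spot each, lie at other positions of the locus. The probe at chr17:29227986-29228045, listed for NM_001111099 and not for NM_007669, had 349 on the GnRH array, against 372 on the vehicle array, a difference of 0.01 ± 0.20. The probe at chr17:29235299-29235358, listed for ENSMUST00000122348, had 24.5 on the GnRH array, against 21.8 on the vehicle array (0.26 ± 0.39). Neither differed by more than its scanner error.

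**Figure D3:**
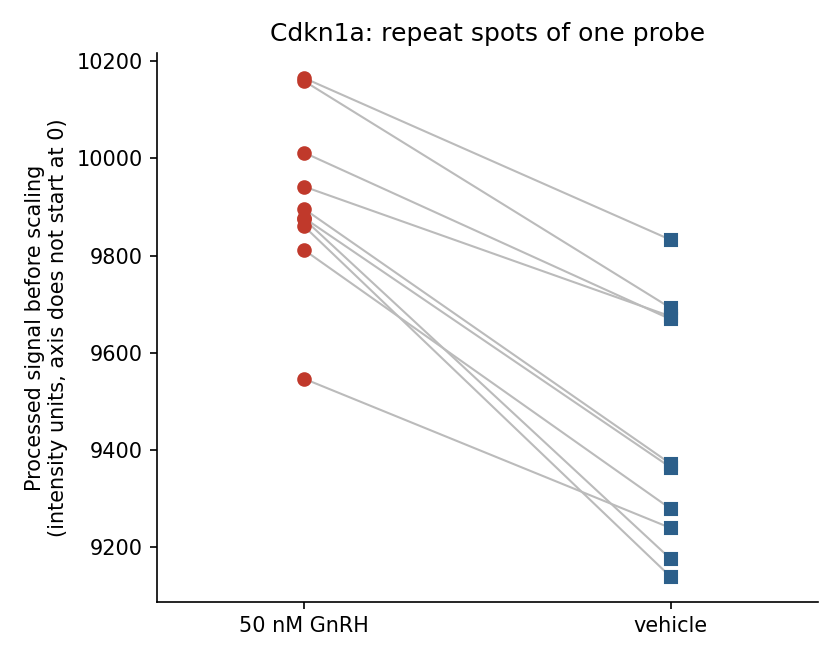
Processed signal of the 10 spots of the Cdkn1a probe for NM_007669 and NM_001111099 on the GnRH array (left) and the vehicle array (right) before scaling, with lines joining the same position on the 2 arrays. All 10 lines slope from the GnRH array down to the vehicle array; the axis does not start at 0.

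The size of the Cdkn1a difference was of the order of that of the spike-in controls. 8 E1A control probes, which detect RNA added during labelling in this kind of array, were well above background on both arrays and had differences after scaling from -0.08 to 0.22, with a median of 0.14. The lowest and the highest varied most between spots, with SDs of 0.40 and 0.13, and the others ran from 0.13 to 0.17. Scaled to the median of all 8 controls, a choice made after the data were seen, the median of all genes was at -0.15 and Cdkn1a at 0.024. Relative to the median gene its place is the same under either scale.

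Of the feedback genes, Mdm2 was higher by more than its scanner error and Ccng1 was within its own. Mdm2 had 7214 on the GnRH array, against 6200.5 on the vehicle array, 1.24-fold higher (0.31 ± 0.20), and 4.72% of all genes had a larger difference; scaled to the spike-ins it was at 0.17, within its error. Ccng1 had 6764 on the GnRH array, against 7022 on the vehicle array, a difference of 0.04 ± 0.20 that was -0.10 when scaled to the spike-ins. The differences of these genes were 0.27 ± 0.29 apart, which is within the scanner error. The Mdm2 probe, for NM_010786, lies at chr10:117126010-117126069 and the Ccng1 probe, for NM_009831, at chr11:40562427-40562486, both on the minus strand in mm9.

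The apoptosis genes gave 1 measured value. Bbc3 had 2369 on the GnRH array, against 2256 on the vehicle array (0.17 ± 0.20; NM_133234, chr7:16903403-16903462, plus strand, mm9). Pmaip1 (NM_021451) was well above background on neither array, so no fold is given. Of the genes that restrain growth signalling, Phlda3 had 6258 on the GnRH array, against 6186 on the vehicle array (0.11 ± 0.20, and -0.03 when scaled to the spike-ins; NM_013750, chr1:137665642-137665701, plus). Sesn1 had 2374 on the GnRH array, against 2662 on the vehicle array (-0.07 ± 0.20; NM_001162908, chr10:41628012-41628071, plus). The Sesn1 spot lay in an area of the slide where neighbouring spots read high on the GnRH array, with a median difference of 0.44 among them, and its part in the Sesn1 value was not tested. Bbc3 and Phlda3 did not differ by more than their scanner error on either scale, whereas Sesn1 was past its own when scaled to the spike-ins (-0.21).

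**Figure D4:**
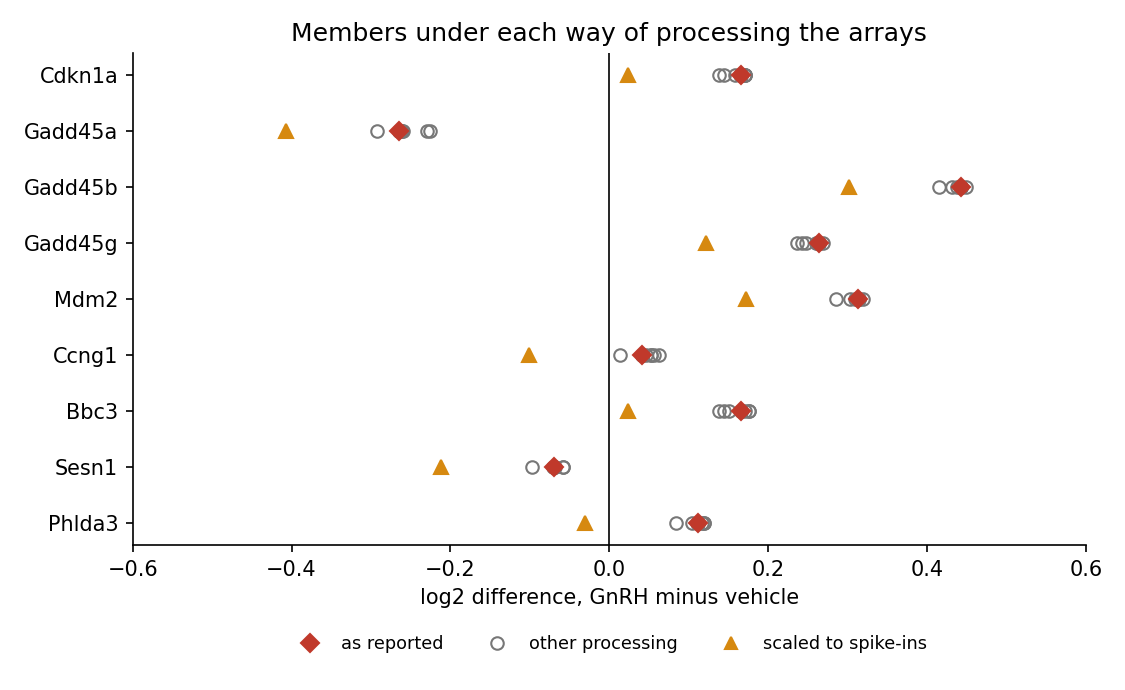
Log2 difference, GnRH minus vehicle, of each measured member as reported (diamonds), under other ways of processing (open circles, 11 for each member and 10 for Sesn1) and scaled to the spike-ins (triangles). The open circles keep the sign of the reported value for each of the 9 members, and the triangles of Ccng1 and Phlda3 lie below 0.

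All 18 listed regulators and partners of p53 were measured, and their median was 0.01. At 1.5-fold 0 of them were higher, against 1.19% of all genes, and 0 lower, against 0.881%, a share at which few or no calls fall in a list of this length. Trp53 itself had 686 on the GnRH array, against 737 on the vehicle array (-0.01 ± 0.14). The members of that list furthest from 0 were the checkpoint kinase genes Chek1 (0.50 ± 0.33, at 35.6 on the GnRH array and 26.8 on the vehicle array) and Chek2 (-0.23 ± 0.20) and the acetyltransferase gene Crebbp (0.12 ± 0.20). Mdm4, the relative of Mdm2 that holds p53 inactive, had a difference of 0.01 ± 0.21.

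Btg2 and Gdf15 were the listed other targets of p53 that were at least 2-fold higher. Of 30 measured of 31 listed, 2 were at least 2-fold higher, against 0.311% of all genes, and 0 at least 2-fold lower, against 0.132%. At 1.5-fold, 3 were higher, Btg2, Gdf15 and Plk2, the last at the threshold, against 1.19% of all genes, and the median was 0.02. Btg2, an antiproliferative gene that growth factors also induce, had 3402 on the GnRH array, against 742 on the vehicle array, 4.90-fold higher (2.29 ± 0.20). Gdf15, a secreted stress cytokine gene, had 10317 on the GnRH array, against 3680 on the vehicle array, 2.99-fold higher (1.58 ± 0.20). Plk2, which encodes a polo-like kinase, had 305 on the GnRH array, against 217 on the vehicle array (log2 difference 0.59 ± 0.21). Thbs1 was well above background on neither array.

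Of 8 paralogs of the members listed, 7 were measured, with a median of 0.01. At 1.5-fold 0 of them were higher or lower, which in so short a list is near the 1.19% and 0.881% of all genes. Phlda1, a relative of Phlda3, had 5203 on the GnRH array, against 4246 on the vehicle array (0.39 ± 0.20). Sesn2 had 5565 on the GnRH array, against 4873 on the vehicle array (0.29 ± 0.20), and the p57 gene Cdkn1c differed by -0.08 ± 0.20. All 14 listed GADD45 partners and stress kinases were measured, 0 past 1.5-fold, again near the share of all genes, with a median of 0.02 and with Mapk8, which encodes a JNK, furthest from 0 at 0.27 ± 0.21. Cdk1 (0.20 ± 0.20) and Ccnb1 (0.10 ± 0.20), which form the mitotic kinase that GADD45 proteins bind, followed it. The median of each of these lists, and that of the p53 regulators and of the other targets, was 0.01 or 0.02 and fell below 0 when the arrays were scaled to their medians or to the spike-ins.

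The list of other stress-inducible growth arrest genes had 2 members, both measured, with a median of 0.60. Ppp1r15a, the growth arrest gene also called Gadd34, had 11409 on the GnRH array, against 7662 on the vehicle array, 1.59-fold higher (0.67 ± 0.20). Ddit3, also called Gadd153 or CHOP, had 1014 on the GnRH array, against 747 on the vehicle array, 1.45-fold higher (0.53 ± 0.20). Both have GADD in an older name and are unrelated in sequence to the GADD45 family.

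**Figure D5:**
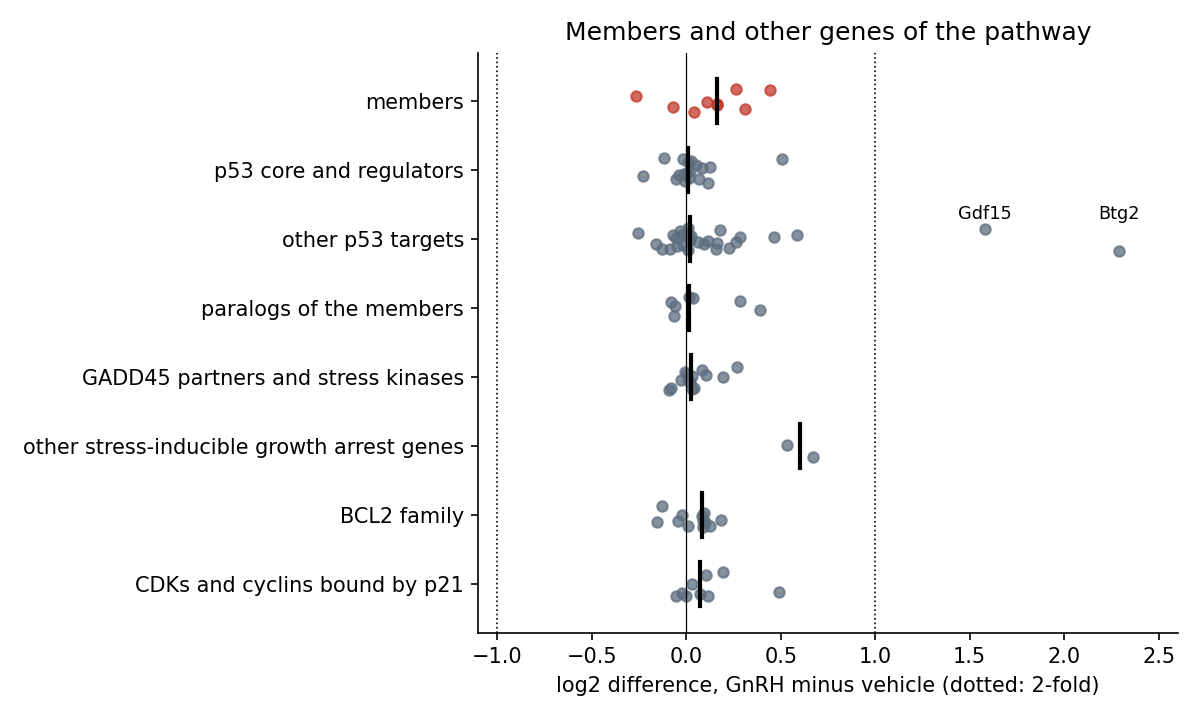
Log2 difference, GnRH minus vehicle, of each measured gene among the members (top row, 9 genes) and the pathway lists; points are genes, black bars are medians and dotted lines mark 2-fold. Btg2 and Gdf15 are the genes past 2-fold, and the members lie between -0.27 and 0.44.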

How the data were processed

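Total RNA was amplified, Cy3-labelled and put on Agilent arrays of 1 colour with probes of 60 bases, 1 array per group, per the labels. The scanner output deposited by the authors holds a linear intensity for every spot; the software (Feature Extraction 10.7.1.1 per the file headers, 9.5.1.1 per the submitters' processing notes) had subtracted background and detrended each array. The deposited value table of the authors holds linear intensity with nearly equal sorted values on both arrays (median 28.4 each) and a correlation of 0.998 with the scanner differences over 29665 probes; how it was normalized is not given in the sources used here.

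Outlier spots (94 on the GnRH array, 121 on the vehicle array) and all controls were left out, log2 signals of a probe's spots were averaged, and each array's 75th percentile was subtracted. A probe counted as measured when at least 50% of its spots were well above background (56.9% of all non-control spots on the GnRH array, 55.2% on the vehicle array; 0 were saturated) on both arrays, and a gene by its brightest such probe. Of all probes, 27235 were named through RefSeq (GRCm38.p6). No test was possible. Members were taken by the name in the files; all 10 are reported, with up to 3 genes of largest difference per list, and others (such as Mdm4 and Trp53) were named after their values were seen. 1 gene of the list of other p53 targets is not reported here and was left out of that list's counts. The members and lists were chosen with earlier results of these data known. Areas of the slide were those with a median of at least 0.3 among spots within 2 rows and columns (3 areas, 574 spots). The steps from spot signals to gene differences were checked on data simulated from the vehicle array. The search for areas, the alternatives and the promoter matches were not checked in this way. Tools were Python 3.11.15, pandas 2.3.3 and limma 3.58.1. Alternatives changed scaling, background correction, source of values, filters, probe rule, outliers and areas.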

Additional observations from a re-analysis of the deposited data

How the results depend on the processing

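The counts of members at least 2-fold and at least 1.5-fold higher stayed at 0 under 11 other ways of processing and with spike-in scaling. The members' median of 0.17 ran from 0.14 to 0.17 under those 11. Scaling to the spike-ins, added after the data were seen, gave 0.024 because it lowers every difference by the same amount; Gadd45b was then at 0.30, Mdm2 at 0.17, Gadd45g at 0.12 and Gadd45a at -0.41. Past the scanner error of the reported processing were 4 members higher and 1 lower under each of the 11. With spike-in scaling 1 was higher and 2 lower. The error was not recomputed for each alternative, so these counts do not use the error of the mean over the Cdkn1a probes. Under the 11 each measured member kept its sign, with Gadd45b at 0.42 to 0.45 and Gadd45a at -0.29 to -0.23. Several of the 11, such as the filters on dim probes and the mean over probes, cannot change a bright gene with 1 probe. Sesn1 has no value without the areas of the slide. The median of the BCL2 family was 0.0044 with the mean over probes, and that cause was not tested. Signal over background leaves Pmaip1 unmeasured and the dimmest Cdkn1a probe with an error of 0.39. No paired analysis was possible because each group has 1 array.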

Other observations

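Of 13 listed members of the BCL2 family, the partners of Bbc3 and Pmaip1 in apoptosis, 12 were measured, with a median of 0.08. At 1.5-fold 0 were higher, against 1.19% of all genes, and 0 lower, against 0.881%, which is near that share in so short a list. Scaled to the spike-ins, the median of this family was -0.06. Bok, a relative of Bax, had the highest difference at 0.18 ± 0.20, with 8660.1 on the GnRH array and 8136 on the vehicle array. Mcl1, which encodes the survival protein that NOXA binds, was lowest at -0.16 ± 0.20, with 9413 on the GnRH array and 11201 on the vehicle array, followed by Bid at -0.13 ± 0.20. Bik was well above background on neither array.

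Of the 12 listed kinases, cyclins and PCNA that p21 binds, 9 were measured, with a median of 0.07 that was -0.07 when scaled to the spike-ins. At 1.5-fold 0 were higher, against 1.19% of all genes, and 0 lower, against 0.881%, again near that share. Ccne2, which encodes a cyclin of the start of DNA synthesis, was furthest from 0 at 0.49 ± 0.25, on a dim probe with 49.1 on the GnRH array and 37.4 on the vehicle array. Its relative Ccne1 had 8765 on the GnRH array, against 8894 on the vehicle array (0.07 ± 0.20). Cdk1 was at 0.20 ± 0.20 and Ccnd3 at 0.11 ± 0.20. Cdk6, Ccnd1 and Ccnd2 were well above background on neither array.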
